A study of Homo sapiens with 20 samples.

Results

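The genes described here are 50 genes of mitosis and the G2/M transition, chosen by name and read from the tables of all 20 libraries, each of which lists 57500 genes. All 50 were found by their Ensembl identifiers. They are the cyclins and phosphatases that start mitosis (8 genes), mitotic kinases (7), the chromosomal passenger complex (4), regulators of anaphase (5), centromere and kinetochore proteins (7), mitotic kinesins (8), spindle microtubule proteins (6), midzone and cytokinesis proteins (3), and 2 proteins of the chromosome surface and DNA topology. RNA-seq of total RNA was performed on NTERT cells, human keratinocytes immortalized with telomerase, in 4 groups of 5 libraries. WT cells had received a control guide RNA and GCN2KO cells were edited by CRISPR-Cas9 in EIF2AK4, the gene of the eIF2 kinase GCN2, which is activated when amino acids are short. GCN2KO is a pool of edited cells and not a clone. Each genotype was either left unwounded or subjected to high density wounding (HDW), in which many scratches were made across a confluent sheet, and RNA was collected 6 h after HDW. In all groups the sheets had been switched to medium with serum and raised calcium, which starts keratinocyte differentiation, before the wound was made.

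Cells enter mitosis when cyclin A2, cyclin B1 and cyclin B2 activate the kinase CDK1 and the CDC25 phosphatases remove its inhibitory phosphates. The aurora, Polo-like and checkpoint kinases then build the spindle and hold chromosomes until every kinetochore is attached, after which the anaphase-promoting complex with CDC20 and UBE2C marks securin and cyclin B for destruction. Most of these genes are transcribed late in the cell cycle: the MuvB proteins, with FOXM1 and B-MYB in cycling cells and with E2F4 and a pocket protein (the DREAM complex) in resting cells, act through a promoter element called CHR, and NF-Y acts through CCAAT boxes. In epidermis, cell division is confined to the basal layer, and keratinocytes that differentiate leave the cycle.

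Promoter sequences of the members were examined first, because a CHR or CCAAT element is the feature these genes are known to share and the choice of members did not use it. RefSeq windows (GRCh38.p14) from 250 bases before to 50 after the annotated start were at hand for 43 of the 50 genes. AURKA, TPX2, FOXM1, PBK, TTK, UBE2C and BIRC5 were not matched. Both strands were searched for CCAAT and for 3 CHR spellings, which are the sequence TTTGAA, its variant TTTAAA and the variant TTCGAA. Both variants read the same on either strand and were counted once, and matches of different spellings may overlap. A gene with several windows was counted once if any of them held a match. TTTGAA was found in 32 of the 43 genes, TTTAAA in 16 and TTCGAA in 3, and 39 genes (90.7%) held at least 1 CHR spelling. CCAAT was found in 36 genes (83.7%). Among the 11539 genes that passed the expression filter over all 20 libraries and had a window, the shares were 22.9% for a CHR spelling and 42.7% for CCAAT, and among all 35116 windows of this length they were 25.1% and 34.6%. A CHR spelling and a CCAAT occurred together in 32 members (74.4%) and in 9.64% of those expressed genes. AURKB, CCNA2, NEK2 and SPC24 held none of the 3 CHR spellings in this window. A match of letters describes the window and does not show a bound site.

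**Figure D1:**
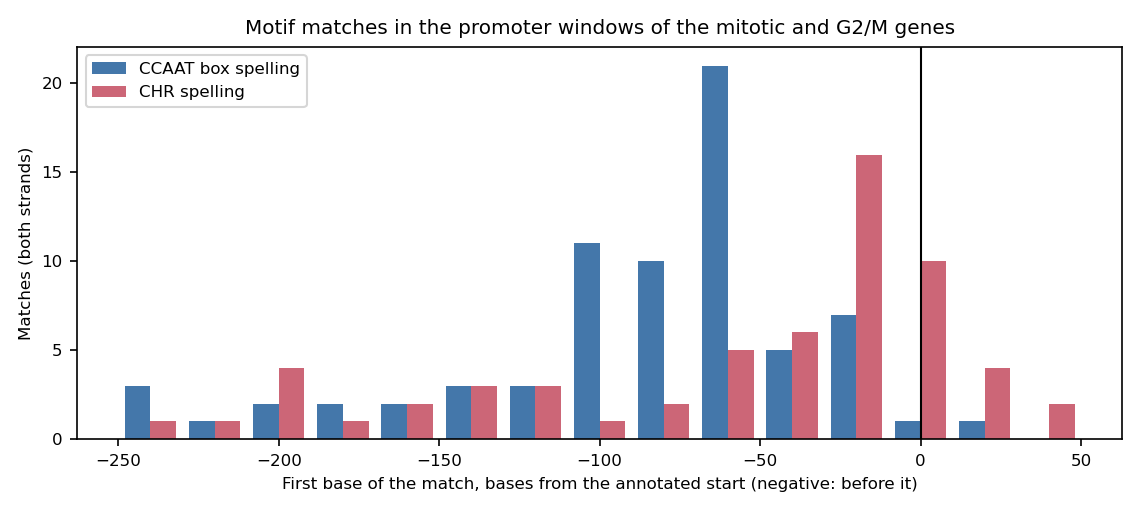
Number of motif matches (vertical axis) by the distance in bases of their first base from the annotated start (horizontal axis, bins of 20 bases), over the first listed promoter window of 43 mitotic and G2/M genes, for CCAAT (blue) and the 3 CHR spellings (red), on both strands. The median position was -72 for the 72 CCAAT matches and -29 for the 61 CHR matches, so the CHR matches lie closer to the start.

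The windows below are those of the called member with the largest change in each comparison among members whose window holds a CHR spelling. They are written 5′ to 3′ on the strand of the gene, in lower case with every CCAAT (or its complement on the other strand, ATTGG) and every CHR spelling in capitals. KIF4A (a chromosome-binding kinesin, chrX:70289854-70290153, plus strand) was picked for GCN2KO against WT in unwounded cells and has 1 CCAAT, on the other strand at -58, and TTTGAA at -34. BUB1B (the checkpoint kinase BubR1, chr15:40160819-40161118, plus strand) was picked for GCN2KO against WT after HDW and has TTTGAA at -23 and no CCAAT. In that comparison AURKB and SPC24, with no CHR spelling, changed more than BUB1B (log2 fold changes of -3.53, -2.94 and -2.51). So did BIRC5 (-3.09), which had no window. CDC25B (a CDK1-activating phosphatase, chr20:3796060-3796359, plus strand) was picked for HDW in WT and for the interaction, and this one of its listed windows has CCAAT on the other strand at -73 and TTCGAA at -38. CENPF (a kinetochore protein, chr1:214602945-214603244, plus strand) was picked for HDW in GCN2KO and has 4 matches to CCAAT, with TTTAAA at -115 and the spelling TTTGAA at 41.
KIF4A: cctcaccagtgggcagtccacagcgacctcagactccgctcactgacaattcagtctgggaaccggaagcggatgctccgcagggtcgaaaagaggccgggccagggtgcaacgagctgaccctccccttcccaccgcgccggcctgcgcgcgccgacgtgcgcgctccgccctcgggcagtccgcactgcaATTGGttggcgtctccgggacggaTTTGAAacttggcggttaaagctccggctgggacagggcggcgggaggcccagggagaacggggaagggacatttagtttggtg
BUB1B: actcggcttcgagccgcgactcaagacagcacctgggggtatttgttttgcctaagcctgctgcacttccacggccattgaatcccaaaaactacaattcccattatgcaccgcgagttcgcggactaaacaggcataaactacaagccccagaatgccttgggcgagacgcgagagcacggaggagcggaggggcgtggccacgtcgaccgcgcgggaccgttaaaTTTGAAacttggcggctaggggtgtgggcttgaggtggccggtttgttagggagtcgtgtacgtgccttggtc
CDC25B: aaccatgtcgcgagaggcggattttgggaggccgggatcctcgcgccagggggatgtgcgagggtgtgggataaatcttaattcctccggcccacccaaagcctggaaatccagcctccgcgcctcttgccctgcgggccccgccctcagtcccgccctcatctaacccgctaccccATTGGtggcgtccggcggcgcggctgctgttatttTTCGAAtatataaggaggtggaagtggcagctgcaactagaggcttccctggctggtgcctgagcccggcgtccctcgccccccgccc
CENPF: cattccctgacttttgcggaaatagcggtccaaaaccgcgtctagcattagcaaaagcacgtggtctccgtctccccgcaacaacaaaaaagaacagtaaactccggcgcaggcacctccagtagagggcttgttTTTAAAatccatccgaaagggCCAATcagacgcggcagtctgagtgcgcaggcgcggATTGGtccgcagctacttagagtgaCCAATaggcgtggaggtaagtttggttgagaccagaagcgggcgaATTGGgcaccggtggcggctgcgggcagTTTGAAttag

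Library totals ranged from 14083504 to 34611570 counts assigned to genes, and the smallest were in unwounded WT. Values below are normalized read counts, that is counts divided by the library's effective size (TMM) relative to the mean over the 20 libraries. EIF2AK4 itself averaged 4355 ± 149 in unwounded WT and 894 ± 61.8 in unwounded GCN2KO (SD, n = 5; log2 fold change -2.28 ± 0.06, adjusted p = 4.29e-13), and 4194 ± 129 against 874 ± 66.5 after HDW (-2.27 ± 0.05, adjusted p = 3.26e-12). All 12 keratinocyte markers examined had counts in every group, but their levels differed by genotype. Of the 12, 4 were called higher and 6 lower in unwounded GCN2KO, and 3 higher and 6 lower after HDW. Means in unwounded WT and unwounded GCN2KO were 63320 and 35130 for KRT14 and 41390 and 24860 for ITGA6. They were 50240 and 25990 for ITGB4 and 12020 and 8346 for TP63. In the other direction, they were 111300 and 373900 for KRT17 and 68240 and 169100 for KRT6A. PTPRC and CD3E of leukocytes, PECAM1 and CDH5 of endothelium, TYR, DCT and SOX10 of melanocytes and COL1A2, COL3A1 and PDGFRA of fibroblasts stayed under 10 counts in every library. Other genes of these lists reached 10 counts in at least 1 library, namely CD14 and CD68, VWF and KDR, MITF, PMEL and MLANA, and COL1A1, DCN, LUM, PDGFRB and TWIST2. Of them, MITF was called higher in GCN2KO before and after HDW (1.98 and 1.94 on the log2 scale) and so was CD68 (1.00 and 0.53), while CD14 (-1.10 and -0.67) and TWIST2 (-0.63 and -1.24) were called lower in both states. COL1A1 was lower before HDW alone (-0.27), and DCN (0.66) and MLANA (0.79) were higher after it alone. Summed over the 7 melanocyte genes, in which MITF had the most counts, the libraries lay between 130.4 and 209.4 in both WT groups and between 351 and 644 in both GCN2KO groups. Summed over the 6 leukocyte genes, most of it CD14, they lay between 899 and 1872 in WT and between 479 and 1282 in GCN2KO. Markers of differentiated keratinocytes, summed over the 14 listed, ranged from 9251 to 12350 in unwounded WT, 9880 to 15240 in wounded WT, 21150 to 27990 in unwounded GCN2KO and 24910 to 33610 in wounded GCN2KO, so the genotypes did not overlap. LORICRIN and DSG1 of that list were under 10 counts in every library. Only 12 of the 14 passed the filter. Of these 12, 7 were called higher and 3 lower in unwounded GCN2KO, and 6 higher and 3 lower after HDW. Of all genes tested, 33.4% were higher and 33.1% lower before HDW, and 35.9% and 35.8% after it. The share of the 12 called higher was thus above that of all genes in both states, and the share called lower was below it. IVL had the most counts of the 14 in both GCN2KO groups, with means of 3126 in unwounded WT and 11070 in unwounded GCN2KO. CALML5 was called lower in both states (-1.13 and -1.29). Means of KRT1, FLG and TGM1 were also lower in unwounded GCN2KO (11.2, 67.6 and 2908) than in unwounded WT (22.4, 125.8 and 3453). These values stand beside every genotype difference below, and their part in it was not tested. In RNA from whole cultures, fewer cells in mitosis and less mitotic RNA per cell cannot be told apart.

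Members were expressed at very different levels. Per kilobase of exon, CDC25B was the highest of the 50 in all 4 groups, at 2354 normalized counts per kilobase in unwounded WT, followed by PTTG1 (securin) at 128. CDC25C, the CDC25 phosphatase most tied to mitotic entry, was the lowest in unwounded WT at 1.84, and SPC25, a subunit of the NDC80 complex, was the lowest in both GCN2KO groups at 0.184 and 0.0912. CDC25B alone held 64.0 to 73.7% of all member counts in unwounded WT and 42.9 to 62.4% in wounded WT, so sums over members are given without it. The sum over the other 49 was 3599 to 4719 normalized counts (median 4153) in unwounded WT and 3668 to 5584 (median 4822) in wounded WT. It was 2230 to 2683 (median 2471) in unwounded GCN2KO and 2404 to 2472 (median 2454) in wounded GCN2KO. No GCN2KO library reached the lowest WT library, and the WT groups overlapped each other, as did the GCN2KO groups. The median coefficient of variation of a member within a group was 23.1% in unwounded WT, 24.6% in wounded WT, 29.2% in unwounded GCN2KO and 24.3% in wounded GCN2KO.

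**Figure D2:**
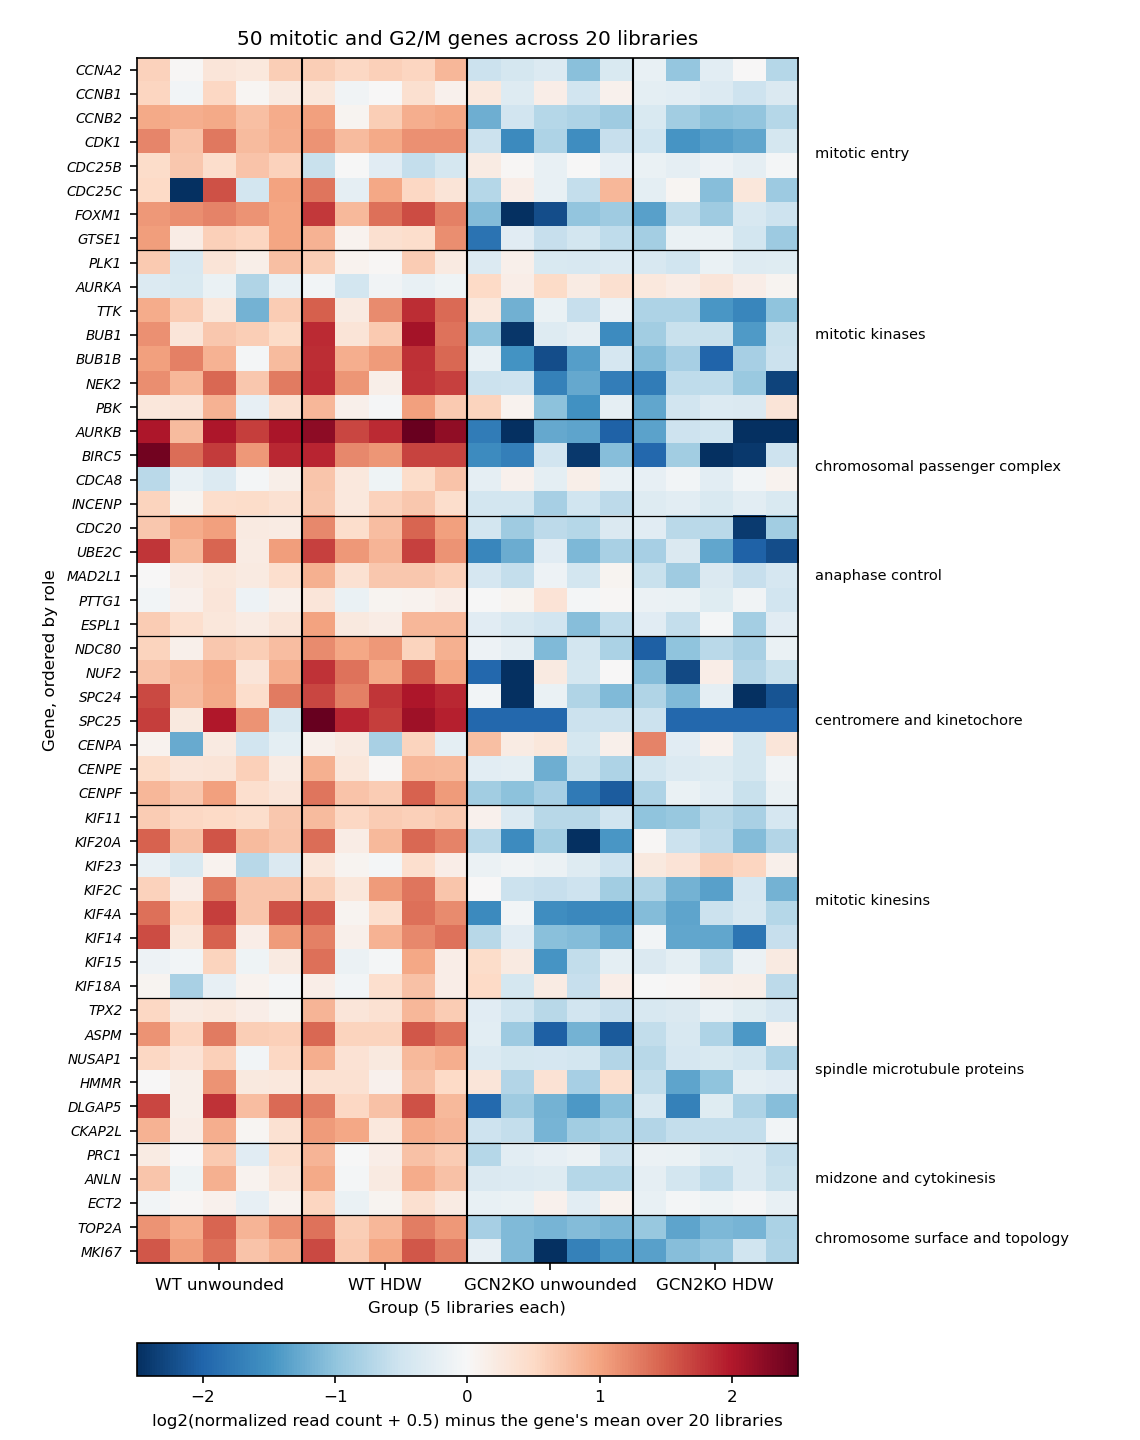
Heat map of the 50 genes (rows, ordered by role) in the 20 libraries (columns, 5 per group, replicates 1 to 5 from left to right). Color is log2(normalized read count + 0.5) minus the gene's mean over the 20 libraries, with the scale ending at 2.5 in either direction. Most rows are red in both WT blocks and blue in both GCN2KO blocks, while AURKA and CENPA lean the other way and CDC25B is highest in unwounded WT.

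Within the WT groups the members tended to be low or high in the same libraries. In wounded WT, replicate 2 held the lowest value of 32 of the 50 genes and replicate 3 of 16, and replicates 1 and 4 held the highest of 25 and 19. In unwounded WT, replicates 4 and 2 held the lowest of 21 and 17 and replicate 3 the highest of 27. The mean over members of log2(normalized count + 0.5) ranged from 5.43 to 6.0 in unwounded WT and from 5.59 to 6.24 in wounded WT, against 4.34 to 4.66 and 4.36 to 4.57 in unwounded and wounded GCN2KO. Replicate 2 of wounded WT was sequenced about as deeply (34209033 counts) as replicate 1 (34589787 counts). These counts are a description of genes that share libraries.

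The first comparison asked how loss of GCN2 changed these genes before wounding. Every role held genes that were called lower in unwounded GCN2KO. Of the 44 genes that passed the filter on low counts, 33 were called lower at an adjusted p of 0.05 or less and 1 higher, and 10 were not called, where 33.1% of all 15348 genes tested were called lower and 33.4% higher. Of these, 21 fell by at least 1 on the log2 scale, against 8.22% of all genes tested, and the median log2 fold change of the 44 was -0.98 (all genes 0.00). In 30 of the 44, all 5 GCN2KO libraries lay below all 5 WT libraries, as did 27.0% of all genes tested, and so they did in 4 of the 6 genes that were not tested. The filter matters here: 17 of the 44 genes exceeded the minimum in all WT but not all GCN2KO libraries and so passed through WT, 5 of them (GTSE1, NEK2, BIRC5, KIF20A and DLGAP5) with no GCN2KO library above it. The rest of the 17 were FOXM1, BUB1, BUB1B, PBK, UBE2C, CENPF, KIF2C, KIF4A, KIF14, KIF15, ASPM and MKI67. Among the 26 genes above the minimum in all 10 libraries, 18 were lower and 1 higher, with a median of -0.81. No share of all genes above it in all 10 libraries is given here. With no filter, all 50 were tested, and 38 were lower and 1 higher, where 17.3% of 31604 genes were called lower. The 6 genes not tested by the main fit were CDC25C, AURKB, NUF2, SPC24, SPC25 and CENPA.

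Among the genes that start mitosis, 6 of the 7 tested fell. CDK1, the kinase that drives mitosis (chromosome 10, 60778331 to 60794852), read 89.4, 62.5, 95.4, 66 and 71.3 normalized counts in the 5 unwounded WT libraries and 26.1, 12.3, 21.9, 12.6 and 25.3 in the 5 unwounded GCN2KO libraries. Every GCN2KO value was below the lowest WT value, and the log2 fold change was -1.93 ± 0.21, adjusted p = 7.91e-07. CCNB2 (cyclin B2) fell from 100.2 ± 5.72 to 30.7 ± 5.67 (-1.71 ± 0.14, adjusted p = 2.99e-08), one of the 3 smallest adjusted p-values of the members. CCNA2 (cyclin A2) fell from 43.1 ± 7.17 to 23 ± 4.13 (-0.91 ± 0.19, adjusted p = 4.45e-04). FOXM1, a transcription factor of the G2/M genes, fell from 48.9 ± 3.22 to 7.78 ± 4.55 (-2.54 ± 0.27, adjusted p = 4.28e-07). FOXM1 passed the filter through WT, with 1 to 14 raw counts in the GCN2KO libraries. It shares 15.9% of its exonic bases with other annotated genes, mainly the neighbouring ITFG2. CCNB1 (cyclin B1, chromosome 5, 69167135 to 69178245) differed from its partners. It read 230.5, 152, 228, 165 and 187 in WT and 189.9, 127, 178, 114 and 172 in GCN2KO, the groups overlapped, and the change of -0.29 ± 0.15, adjusted p = 0.11 was not called. It was called without the filter (adjusted p = 0.037).

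CDC25B (chromosome 20, 3786772 to 3806121) was the most abundant member and fell less in proportion. Its unwounded WT libraries read 8474, 9811, 8397, 10090.0 and 9173 and its unwounded GCN2KO libraries 7051, 6262, 5408, 6131 and 5333. The groups did not overlap, and the log2 fold change was -0.60 ± 0.08, adjusted p = 1.10e-05.

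The kinases divided. AURKA (aurora A, a centrosome and spindle pole kinase, chromosome 20, 56369389 to 56392337) was the 1 member called higher. It read 121, 118, 138, 91 and 135 in unwounded WT and 216, 173, 214, 177 and 204 in unwounded GCN2KO. All GCN2KO values were above all WT values (0.72 ± 0.12, adjusted p = 7.30e-05). BUB1, a checkpoint kinase at kinetochores, fell from 30 ± 7.09 to 9.79 ± 5.59 (-1.49 ± 0.30, adjusted p = 4.15e-04), and NEK2, a centrosome kinase, from 15.2 ± 3.38 to 3.02 ± 1.45 (-2.39 ± 0.35, adjusted p = 1.42e-05). PLK1 (Polo-like kinase 1) fell from 48.1 ± 14.1 to 31.6 ± 5.49 (-0.64 ± 0.20, adjusted p = 0.011), with overlapping groups. PBK, a mitotic kinase, was not called (-0.70 ± 0.36, adjusted p = 0.093). TTK (the checkpoint kinase MPS1) was not called either (-0.60 ± 0.33, adjusted p = 0.12), but without replicate 4 of unwounded WT, its lowest WT library, the change was -0.89 with an adjusted p of 0.0067.

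In the chromosomal passenger complex, which corrects kinetochore attachments and acts in cytokinesis, the subunits changed unequally. BIRC5 (survivin, chromosome 17, 78214186 to 78225636) passed the filter through WT alone. Unwounded WT libraries read 61.6, 30.3, 38.6, 24.2 and 42.4 and unwounded GCN2KO libraries 3.41, 3.07, 7.89, 1.68 and 5.07. The raw counts behind the GCN2KO values were 2 to 9 reads a library, and the log2 fold change was -3.09 ± 0.35, adjusted p = 1.03e-06. INCENP, the scaffold of the complex, fell from 412 ± 49.4 to 212 ± 22.4 (-0.97 ± 0.10, adjusted p = 4.64e-07). CDCA8 (borealin) was 33.5 ± 7.02 in WT and 36.7 ± 5.01 in GCN2KO and was not called (0.09 ± 0.18, adjusted p = 0.73). AURKB (aurora B, the kinase of the complex) did not pass the filter here, with 5 to 23 raw counts in the WT libraries and 0 to 2 in the GCN2KO libraries.

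Of the 5 genes of anaphase control, 4 fell. UBE2C, the E2 enzyme of the anaphase-promoting complex, went from 34.4 ± 13.9 to 7.62 ± 2.95 (-2.04 ± 0.33, adjusted p = 4.39e-05), and CDC20, its activator, from 72.4 ± 18.9 to 29.9 ± 4.32 (-1.22 ± 0.20, adjusted p = 4.11e-05). ESPL1 (separase, which cuts cohesin) went from 40 ± 4.77 to 20.7 ± 4.13 (-0.94 ± 0.19, adjusted p = 3.39e-04). MAD2L1 (the checkpoint protein MAD2) changed by -0.51 ± 0.13, adjusted p = 0.0029. PTTG1, the inhibitor of separase, was 252 ± 29.2 in WT and 253 ± 28.7 in GCN2KO and was not called (0.01 ± 0.10, adjusted p = 0.95).

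The 3 kinetochore genes that could be tested all fell: CENPF from 71.2 ± 14.5 to 18.5 ± 6.69 (-1.95 ± 0.24, adjusted p = 2.21e-06), NDC80, the microtubule-binding subunit of its complex (-1.13 ± 0.20, adjusted p = 1.16e-04), and CENPE, a kinetochore motor (-0.99 ± 0.17, adjusted p = 8.69e-05). CENPA, the histone H3 variant of centromeres, had 2 to 9 raw counts in the WT libraries and 7 to 14 in the GCN2KO libraries and was not tested. Of the 8 kinesins, 5 fell, all but KIF11 among the genes that passed the filter through WT. They were KIF4A (-2.62 ± 0.36, adjusted p = 8.41e-06), KIF20A, a midzone motor (-2.47 ± 0.33, adjusted p = 7.12e-06), KIF14, a motor of cytokinesis (-1.96 ± 0.34, adjusted p = 9.16e-05), KIF2C, a kinesin that takes microtubules apart (-1.28 ± 0.25, adjusted p = 2.92e-04), and KIF11 (Eg5), which separates spindle poles (-0.96 ± 0.14, adjusted p = 1.91e-05). KIF23 (a midzone motor) and KIF18A (a motor that dampens chromosome movement) were not called (0.05 ± 0.16, adjusted p = 0.8 and 0.16 ± 0.23, adjusted p = 0.54), nor was KIF15 (-0.41 ± 0.33, adjusted p = 0.28). KIF11, KIF23 and KIF18A were above the minimum in all 10 libraries.

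Of the 6 spindle microtubule proteins, 5 fell, among them DLGAP5 (HURP, -2.62 ± 0.34, adjusted p = 3.92e-06) and TPX2, which activates aurora A on the spindle (-0.75 ± 0.10, adjusted p = 9.95e-06). HMMR, a spindle and hyaluronan-binding protein, was not called (-0.41 ± 0.28, adjusted p = 0.21). ANLN (anillin), a scaffold of the cleavage furrow, fell (-0.91 ± 0.17, adjusted p = 1.99e-04), while ECT2, the exchange factor that activates RhoA there, was 403 ± 34.4 in WT and 383 ± 46.4 in GCN2KO and was not called (-0.07 ± 0.09, adjusted p = 0.55). The 2 chromosome proteins used as proliferation markers both fell. TOP2A (topoisomerase II alpha, chromosome 17, 40388525 to 40417896) read 288, 249.8, 361, 236 and 291 in unwounded WT and 73.9, 61.3, 58.8, 61.4 and 59.1 in unwounded GCN2KO. Its groups were widely separated, and its adjusted p was the smallest of all members (-2.18 ± 0.13, adjusted p = 6.68e-10). MKI67 (Ki-67, chromosome 10, 128096659 to 128126423) read 147, 104, 129, 81.8 and 90.6 in WT and 43.2, 23, 7.89, 15.1 and 17.7 in GCN2KO, again without overlap (-2.40 ± 0.30, adjusted p = 2.59e-06).

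**Figure D3:**
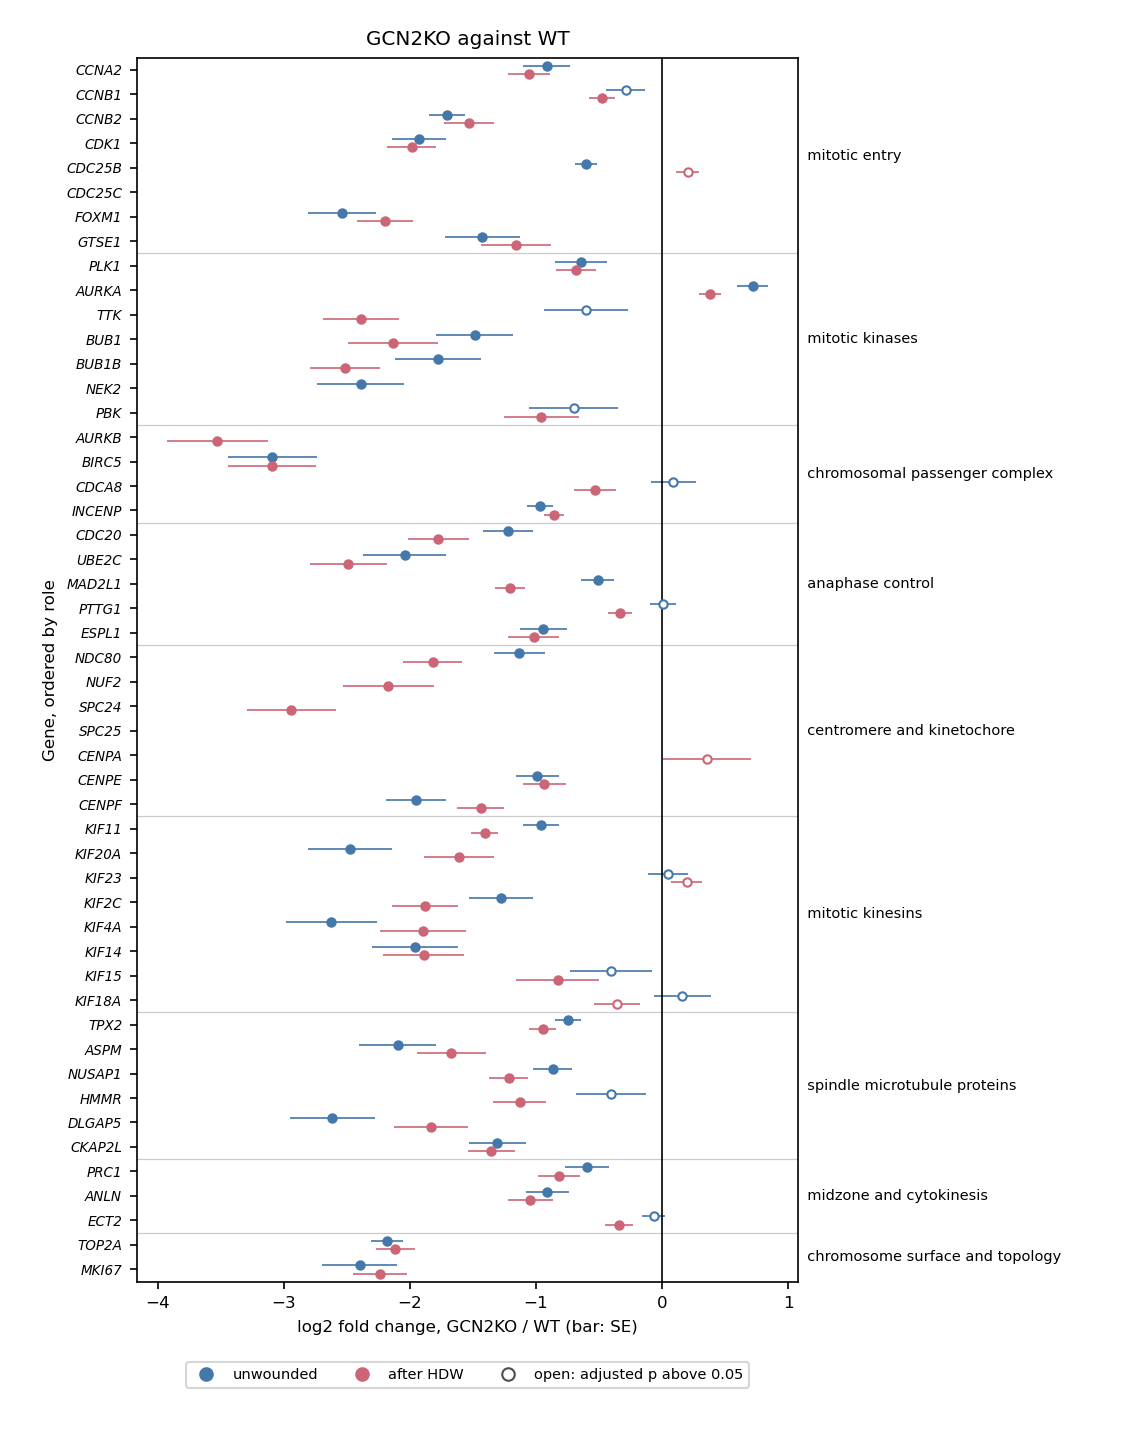
Log2 fold change of GCN2KO against WT (horizontal axis, bars are SE) for each of the 50 genes by role (vertical axis), in unwounded cells (blue) and after HDW (red), from fits to 10 libraries each. Filled points passed an adjusted p of 0.05 and genes with no point did not pass the filter. AURKA lies to the right of 0 in both states, and the called points of all other genes lie to the left.

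The same genotypes were then compared 6 h after HDW, in the other 10 libraries. Of 47 genes that passed the filter, 42 were called lower and 1 higher, where 35.8% of all 15855 genes tested were called lower and 35.9% higher. At least 1 log2 unit was lost by 31 of them, against 7.83% of all genes tested, and the median of the 47 was -1.35 (all genes 0.00). In 37 of the 47, all GCN2KO libraries lay below all WT libraries, against 29.3% of all genes tested. Again 17 genes passed through WT alone, 4 of them (AURKB, BIRC5, NUF2 and SPC24) with no GCN2KO library above the minimum. The rest of these were FOXM1, GTSE1, TTK, BUB1, BUB1B, PBK, UBE2C, NDC80, KIF20A, KIF2C, KIF4A, KIF14 and DLGAP5. Of the 29 genes above the minimum in all 10 libraries, 25 were lower and 1 higher, with a median of -1.02, again without a share of all such genes. With no filter, 45 of the 50 were lower and 2 higher, where 18.9% of 32346 genes were called lower. CDC25C, NEK2 and SPC25 were not tested. The 33 genes lower before wounding and the 42 lower after it shared 31, which is 93.9% of the former and 73.8% of the latter. CDC25B and NEK2 were called lower only before HDW (NEK2 was not tested after it), and AURKB, CCNB1, CDCA8, ECT2, HMMR, KIF15, NUF2, PBK, PTTG1, SPC24 and TTK only after it, of which AURKB, NUF2 and SPC24 were not tested before. A call in 1 state alone is no test of a difference between states, which is given with the interaction below.

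In wounded GCN2KO few reads were left of AURKB and BIRC5 of the chromosomal passenger complex and of SPC24 and NUF2 of the NDC80 complex, which passed the filter through WT alone. AURKB (chromosome 17, 8204733 to 8210600) read 25.3, 16.8, 19.4, 29.9 and 25.1 in the wounded WT libraries and 1.67, 3.35, 3.35, 0 and 0 in the wounded GCN2KO libraries, of which 2 had no read. The GCN2KO values rest on 10 reads in all, and the fitted log2 fold change was -3.53 ± 0.40, adjusted p = 2.41e-06. BIRC5 read 43, 26.1, 24.5, 36.9 and 37.2 in wounded WT and 2.5, 5.86, 0.839, 1.67 and 7.66 in wounded GCN2KO (-3.09 ± 0.35, adjusted p = 2.28e-06). INCENP fell from 455 ± 53.5 to 252 ± 9.98 (-0.85 ± 0.08, adjusted p = 3.55e-07). All 4 members of the passenger complex were therefore called lower after HDW, CDCA8 included.

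SPC24, which anchors the NDC80 complex at the kinetochore, went from 21.3 ± 4.03 to 2.37 ± 1.98 (-2.94 ± 0.35, adjusted p = 3.74e-06), with 0 to 6 raw counts in the GCN2KO libraries. Its partner SPC25, not tested, had 7 to 17 raw counts in the wounded WT libraries and 0 or 1 in every GCN2KO library of either state. NDC80 changed by -1.82 ± 0.23, adjusted p = 8.34e-06. CENPF read 113, 73.2, 69.2, 124 and 92.5 in wounded WT and 25.9, 39.3, 36.9, 30.1 and 39.3 in wounded GCN2KO, with no overlap (-1.44 ± 0.19, adjusted p = 9.89e-06). CENPE fell (-0.93 ± 0.17, adjusted p = 1.95e-04), and CENPA was not called, with 9.57 ± 3.35 in WT and 11.7 ± 6.37 in GCN2KO (0.36 ± 0.35, adjusted p = 0.37). Without replicate 1 of wounded GCN2KO its estimate was -0.047.

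Among the mitotic entry genes, CDK1 read 83.5, 65.6, 73.4, 84.8 and 84.8 in wounded WT and 26.7, 13.4, 14.3, 15.1 and 27.8 in wounded GCN2KO (-1.99 ± 0.19, adjusted p = 4.99e-07). CCNB1 read 193, 149, 159.5, 210.4 and 172 and 135, 133, 126, 110.3 and 124, respectively. These CCNB1 groups did not overlap, and it was called lower at less than 1 log2 unit (-0.48 ± 0.10, adjusted p = 7.99e-04). CCNB2 (-1.53 ± 0.20, adjusted p = 7.62e-06), CCNA2 (-1.06 ± 0.17, adjusted p = 6.54e-05) and FOXM1 (-2.20 ± 0.22, adjusted p = 8.13e-07) also fell. CDC25B was the exception. It read 4190.0, 6089, 5064, 4073 and 4546 in wounded WT and 5465, 5305, 5631, 5263 and 5930.0 in wounded GCN2KO, with overlapping groups, and was not called (0.20 ± 0.09, adjusted p = 0.058). Without replicate 2 of wounded WT, its highest library, it was called higher (0.30, adjusted p = 6.23e-04).

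Of the kinases, AURKA was again higher, at 146, 111, 144, 136 and 144 in wounded WT and 185, 175, 189.5, 172 and 162 in wounded GCN2KO. All GCN2KO values exceeded all WT values (0.38 ± 0.09, adjusted p = 0.0015). The checkpoint kinases fell, BUB1B (BubR1) with a log2 fold change of -2.51 ± 0.28, adjusted p = 1.71e-06 and BUB1 with -2.13 ± 0.36, adjusted p = 9.88e-05. TTK (chromosome 6, 80003887 to 80042527) read 61.5, 25.2, 49.8, 78.8 and 58.8 in wounded WT and 12.5, 12.6, 7.55, 6.69 and 10.5 in wounded GCN2KO. The WT values spread widely, yet the groups did not overlap (-2.39 ± 0.30, adjusted p = 6.87e-06). PLK1 fell (-0.68 ± 0.16, adjusted p = 0.0015).

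All 5 anaphase genes fell after HDW, UBE2C (-2.49 ± 0.31, adjusted p = 4.97e-06) and CDC20 (-1.77 ± 0.24, adjusted p = 1.57e-05) the most, then MAD2L1 (-1.21 ± 0.12, adjusted p = 5.65e-07), ESPL1 (-1.02 ± 0.20, adjusted p = 4.40e-04) and PTTG1 (-0.33 ± 0.10, adjusted p = 0.0066). Of the kinesins, 6 of 8 fell, and of these KIF20A, KIF2C, KIF4A and KIF14 passed the filter through WT. KIF11 was among the 3 smallest adjusted p-values (-1.41 ± 0.11, adjusted p = 4.94e-08), and KIF14 (-1.89 ± 0.32, adjusted p = 1.09e-04) and KIF20A (-1.61 ± 0.28, adjusted p = 1.31e-04) were also lower. KIF15, a second spindle-separating kinesin, was called (-0.83 ± 0.33, adjusted p = 0.037) but not when any 1 of 6 libraries was left out (replicates 1 or 4 of wounded WT, or 1, 2, 3 or 4 of wounded GCN2KO). KIF23 and KIF18A were not called (0.20 ± 0.12, adjusted p = 0.17 and -0.36 ± 0.18, adjusted p = 0.093), although KIF18A was (-0.44, adjusted p = 0.044) without replicate 2 of wounded WT.

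All 6 spindle microtubule proteins and all 3 midzone genes fell after HDW, among them TPX2 (-0.95 ± 0.11, adjusted p = 2.49e-06), HMMR (-1.13 ± 0.21, adjusted p = 2.37e-04), ANLN (-1.04 ± 0.18, adjusted p = 1.18e-04) and ECT2 (-0.34 ± 0.11, adjusted p = 0.011). TOP2A read 336, 202, 235, 319 and 279 in wounded WT and 67.6, 52.7, 60.4, 58.5 and 75.7 in wounded GCN2KO, and its adjusted p was the smallest of the members here as well (-2.12 ± 0.15, adjusted p = 2.79e-08). MKI67 read 158, 78.2, 98.7, 148 and 122 and 19.2, 23.4, 25.2, 35.1 and 28.7, respectively (-2.24 ± 0.22, adjusted p = 4.56e-07). Both markers were separated by genotype in either state, with no WT library under the highest GCN2KO library.

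**Figure D4:**
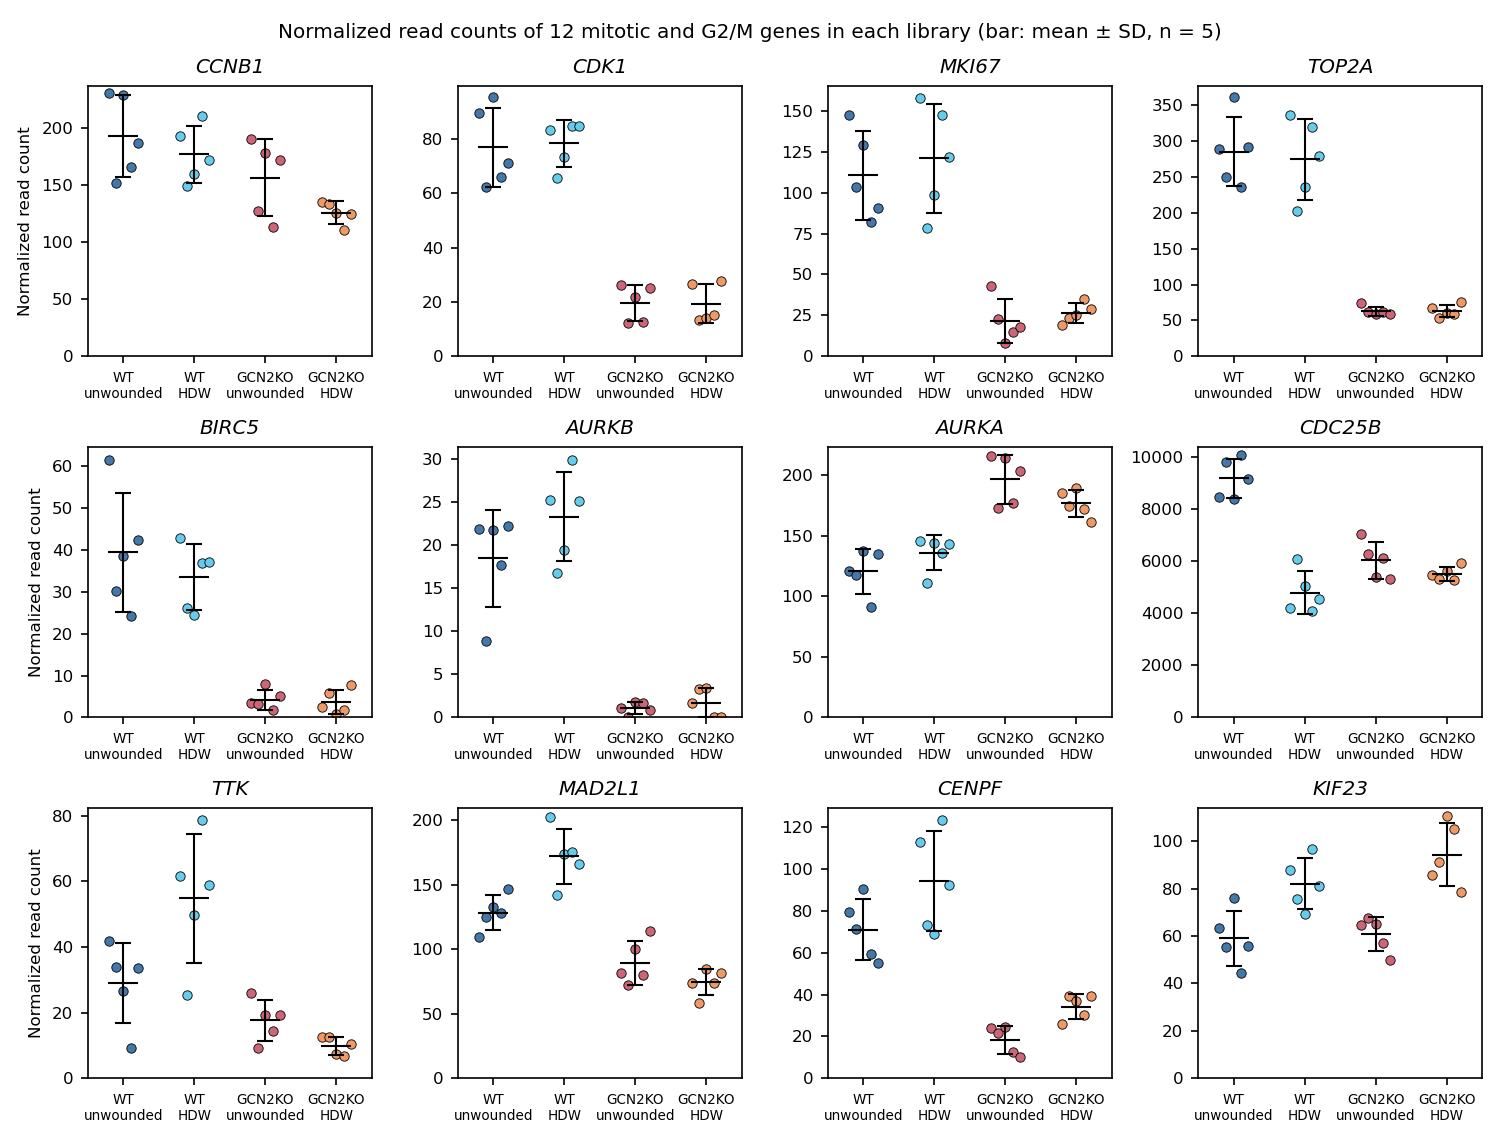
Normalized read counts (vertical axes, each starting at 0) of 12 genes in the 4 groups (horizontal axis). Points are libraries in replicate order and bars are mean ± SD (n = 5). CDK1, MKI67, TOP2A, BIRC5 and AURKB separate by genotype in both states, AURKA is higher in GCN2KO, CDC25B is highest in unwounded WT, and TTK and MAD2L1 are highest in wounded WT.

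Wounding itself was compared with unwounded cells within each genotype. In WT, 8 of the 48 members tested were called higher and 1 lower, where 26.1% of 15348 genes were called higher and 25.2% lower, a share of members below that of all genes, and no member passed 1 log2 unit. At an unadjusted p of 0.05, 13 members passed. The median log2 fold change of the 48 was 0.25 (all genes 0.00), with 38 estimates above 0. The 8 genes were spread over 6 of the 9 roles. TTK read 41.7, 33.9, 26.6, 9.29 and 33.7 in unwounded WT and, as given above, 25.2 to 78.8 after HDW. The groups overlapped (0.99 ± 0.33, adjusted p = 0.019). MAD2L1 read 109, 125, 133, 128 and 146 in unwounded WT and 202, 142, 174, 176 and 166 after HDW. Its groups also overlapped, and its adjusted p was the smallest of the members called higher (0.40 ± 0.10, adjusted p = 0.0042).

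The other 6 were BUB1B (0.69 ± 0.24, adjusted p = 0.028), SPC24 (0.72 ± 0.24, adjusted p = 0.021), NUF2, a subunit of the NDC80 complex (0.63 ± 0.25, adjusted p = 0.05), CDCA8 (0.58 ± 0.19, adjusted p = 0.017), KIF23 (0.49 ± 0.15, adjusted p = 0.012) and TPX2 (0.38 ± 0.11, adjusted p = 0.011). Single libraries decided several of these. Without replicate 4 of unwounded WT, TTK, BUB1B, SPC24 and NUF2 were not called and 4 members were higher. Without replicate 2 of wounded WT, 13 members were higher. NUF2 was lost in 8 of the 10 fits that left out 1 library, and BUB1B in 4. DESeq2, the test the study used, and the edgeR fit to all 20 libraries each lost SPC24 (adjusted p = 0.058 and 0.053) and NUF2 (adjusted p = 0.16 and 0.14). Both gained BUB1. CDC25B went the other way. It read 8474, 9811, 8397, 10090.0 and 9173 in unwounded WT against 4190.0, 6089, 5064, 4073 and 4546 after HDW, all wounded values below all unwounded ones, and it fell in every alternative fit (-0.94 ± 0.09, adjusted p = 6.61e-07).

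The markers CDK1, MKI67 and TOP2A were not called after HDW in WT, at means of 76.9 ± 14.7 and 78.4 ± 8.58, 110.4 ± 27.2 and 121 ± 33.1, and 285 ± 48.7 and 274 ± 56 before and after (adjusted p = 0.86, 0.51 and 0.74). Nor was CCNB1 (adjusted p = 0.44). Genes of DNA replication and G1/S were set beside the members. Of 46 such genes tested in WT, 36 were higher after HDW and 2 lower (median change 0.87 on the log2 scale), and CDC6, which loads the replicative helicase, led (2.65 ± 0.11, adjusted p = 6.34e-11).

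In GCN2KO, 38 members passed the filter, and 3 were called higher and 1 lower, where 11.9% of 15791 genes were called higher and 10.8% lower. At an unadjusted p of 0.05, 8 passed. The 12 not tested were CDC25C, GTSE1, NEK2, AURKB, BIRC5, UBE2C, NUF2, SPC24, SPC25, KIF4A, KIF14 and DLGAP5, and the median of the 38 was 0.01, with 19 estimates on either side of 0. CENPF (chromosome 1, 214603185 to 214664574) read 23.9, 21.5, 24.6, 12.6 and 10.1 in unwounded GCN2KO and 25.9, 39.3, 36.9, 30.1 and 39.3 after HDW. All wounded values were above all unwounded ones, and it rose in every alternative that tested it except the filter of a mean of 50 counts, which it did not pass (0.94 ± 0.24, adjusted p = 0.015). KIF23 read 64.8, 67.5, 64.9, 57.2 and 49.8 in unwounded GCN2KO and 85.9, 91.2, 111, 105 and 78.5 after HDW, again without overlap (0.65 ± 0.13, adjusted p = 0.0052).

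KIF23 was the 1 gene called higher after HDW in both genotypes, since in WT it read 63.6, 55.3, 76.1, 44.6 and 55.9 before and 87.7, 75.7, 69.2, 96.7 and 81.3 after. INCENP rose (0.26 ± 0.09, adjusted p = 0.048) and PTTG1 fell (-0.30 ± 0.10, adjusted p = 0.042), but each call was lost in 7 of the 10 fits that left out 1 library. TTK, higher in WT, had an estimate below 0 here (-0.79 ± 0.27, adjusted p = 0.051), from 26.1, 9.2, 19.3, 14.3 and 19.4 before to 6.69 to 12.6 after. It passed without replicate 2 or replicate 4 of unwounded GCN2KO. CDK1, MKI67, TOP2A and CCNB1 were not called (adjusted p = 0.98, 0.5, 0.93 and 0.13). Of 43 DNA replication and G1/S genes tested in GCN2KO, 2 were higher and 4 lower, with a median of -0.02.

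**Figure D5:**
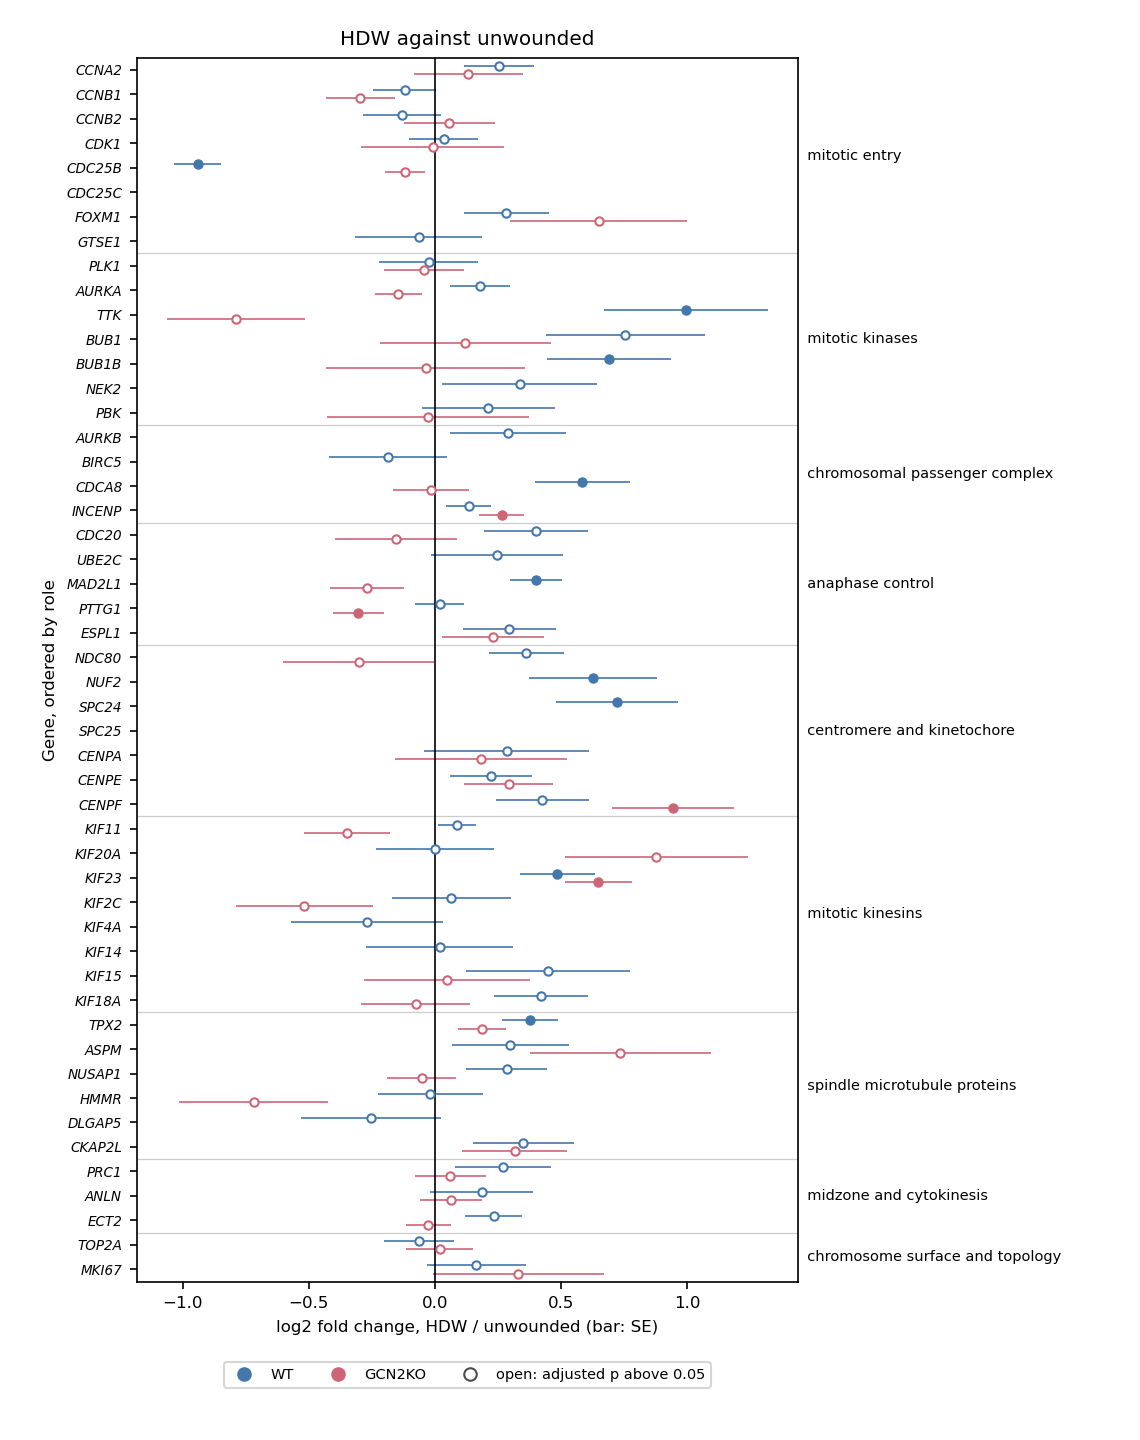
Log2 fold change of HDW against unwounded (horizontal axis, bars are SE) for each of the 50 genes by role (vertical axis), in WT (blue) and GCN2KO (red), from fits to 10 libraries each. Filled points passed an adjusted p of 0.05 and genes with no point did not pass the filter. Most points are open, CDC25B in WT is the lowest at -0.94, and the TTK points lie on opposite sides of 0.

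Whether HDW acted differently in the genotypes was tested by the interaction in a fit to all 20 libraries, where a positive value means a higher response in GCN2KO. Of 48 members tested, 1 was positive and 2 were negative at an adjusted p of 0.05. Of all 16536 genes, 11.2% were positive and 12.5% negative, so the share of members was below that of all genes. At an unadjusted p of 0.05, 8 members passed. The median was -0.16 (all genes -0.01). CDC25B, which fell in WT and was not called in GCN2KO, had an interaction of 0.81 ± 0.13, adjusted p = 7.16e-05. TTK, with a rise in WT and a lower estimate in GCN2KO, had -1.79 ± 0.49, adjusted p = 0.0093. MAD2L1 read 81.8, 72, 100, 79.8 and 114 in unwounded GCN2KO and 74.2, 58.6, 84.7, 73.6 and 81.4 after HDW, against its rise in WT, and had -0.69 ± 0.18, adjusted p = 0.0071. These 3 calls held in every fit that left out 1 library. KIF20A had the largest positive estimate (0.87 ± 0.48, adjusted p = 0.2) and was not called. In the DNA replication and G1/S list, 31 of 46 genes had a negative interaction and 0 a positive one, with a median of -0.80, and CDC6 led (-3.08 ± 0.20, adjusted p = 2.32e-10), a gene that was already higher in unwounded GCN2KO than in unwounded WT (2.99 ± 0.13, adjusted p = 2.23e-11).

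Other genes of the pathway are given with their share of calls in GCN2KO against WT, to be read beside the 33.4% higher and 33.1% lower of all genes before HDW and the 35.9% and 35.8% after it. Among 19 other G2/M control genes tested, 3 were higher and 3 lower before HDW (15.8% each, under the share of all genes), and after HDW 3 were higher and 6 lower (15.8% and 31.6%), with PKMYT1, a CDK1-inhibiting kinase, at the smallest adjusted p of those lower (-2.77 ± 0.32, adjusted p = 2.41e-06). FAM83D, a spindle protein, was higher in GCN2KO in both states (0.71 ± 0.13, adjusted p = 1.39e-04 and 0.91 ± 0.10, adjusted p = 2.66e-06). Of the other centromere and kinetochore genes, 10 were higher and 8 lower of 27 before HDW (37.0% and 29.6%, near the shares of all genes, median 0.09), and 8 higher and 20 lower of 31 after it (25.8% and 64.5%, median -0.42). CENPW was the leading lower gene before HDW (-2.61 ± 0.19, adjusted p = 4.61e-09). Condensin and cohesin genes were lower in 10 and higher in 2 of 18 before HDW (55.6% and 11.1%) and lower in 12 and higher in 3 of 18 after it (66.7% and 16.7%), with NCAPG leading after HDW (-2.36 ± 0.25, adjusted p = 1.02e-06). Cytokinesis genes outside the members were lower in 9 and higher in 1 of 14 before (64.3% and 7.14%), and lower in 8 and higher in 5 of 14 after (57.1% and 35.7%).

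The subunits of the anaphase-promoting complex were more often higher than lower in GCN2KO, 12 against 3 of 16 before HDW (75.0% and 18.8%, median 0.27) and 10 against 3 after it (62.5% and 18.8%, median 0.28), with ANAPC13 leading before HDW (0.61 ± 0.07, adjusted p = 2.12e-06). DREAM and MuvB genes were mixed, with 3 higher and 6 lower of 13 before HDW (23.1% and 46.2%) and 4 higher and 8 lower after it (30.8% and 61.5%). TFDP2 led those lower before HDW (-1.14 ± 0.07, adjusted p = 5.61e-10). LIN54, the MuvB subunit that binds the CHR, led the fewer genes that were higher before HDW (1.01 ± 0.08, adjusted p = 2.36e-08). Of 11 CDK inhibitors and p53 targets, 7 were higher and 1 lower before HDW (63.6% and 9.09%, median 0.54), and 7 were higher and 2 lower after it (63.6% and 18.2%, median 0.43). CDKN1A, which encodes the CDK inhibitor p21, led those called higher before HDW (1.51 ± 0.11, adjusted p = 4.76e-09). BTG2 of the same list was lower before HDW (-0.89 ± 0.06, adjusted p = 4.69e-09) and after it (-0.39 ± 0.05, adjusted p = 3.03e-06). The DNA replication and G1/S genes were lower in 23 and higher in 8 of 45 before HDW (51.1% and 17.8%, median -0.27) and lower in 37 and higher in 2 of 46 after it (80.4% and 4.35%, median -1.16). The comparisons within a state share no libraries between states, while each shares its groups with the wounding comparisons.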

How the data were processed

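RNA-seq counts of 20 NTERT libraries were used, 5 per group. The authors trimmed the reads with Trimmomatic, aligned them to GRCh38 with STAR and counted them per gene with featureCounts, and the deposited values are raw counts of reads per Ensembl gene, 57500 genes per library. The setting for strand is not given in the sources used here. Identifiers were matched to GENCODE release 44 (56410 matched).

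Counts were tested with edgeR 4.0.16 (R 4.3.3) by the quasi-likelihood F-test after TMM normalization and a filter on low counts (filterByExpr, minimum count 10, minimum total 15), each comparison on its 10 libraries and the interaction on all 20. The p-values were adjusted over all genes tested by the Benjamini-Hochberg method, and a gene was called at an adjusted p of 0.05 or less. SE is the log2 fold change divided by the square root of F. A reported log2 fold change depends on edgeR's prior count where counts are near 0. DESeq2 1.42.0, other scalings, other filters, a replicate block and the removal of each library were tried as alternatives. The scripts were tested on simulated data.

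The members and all gene lists were chosen with earlier results of these data known, so agreement with them is no independent evidence. Values in every group were given for the members fixed by role, and further members were named for the smallest adjusted p-values, the largest changes, calls against the majority or failing the filter; from other lists, the gene with the smallest adjusted p in a direction. Per the study's methods the cells of each group were plated and treated as 5 replicates, so p-values measure the spread between these cultures. More than 1 guide was used to edit the gene, and the pool or pools used for RNA-seq are not stated. The p-values therefore cannot be read as a spread between separately edited pools. No 2 libraries of a group agreed within sampling noise (chi-square per gene of 2.41 or more over 40 pairs). Replicate numbers did not pair the libraries (correlations of deviations from -0.33 to 0.13 over 20 pairs). Of the members, PRC1 shares 34.3% of its exonic bases with other annotated genes, FOXM1 15.9%, NUSAP1 15.2%, PLK1 12.8% and BUB1B 10.2%, and reads there may be assigned to either gene or to none.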

Additional observations from a re-analysis of the deposited data

Results flagged for a closer look

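In 52 groups of 5 libraries checked for a value far from the rest (12 genes and the sum over the members without CDC25B, in 4 groups), 1 stood apart. TOP2A in replicate 1 of unwounded GCN2KO read 73.9 normalized counts, where the other 4 libraries lay between 58.8 and 61.4. Chance marks about 1 in 20 such groups.

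The response to HDW differed between genotypes, by the interaction test of the edgeR fit to 20 libraries, in 3 members. That is 1 positive and 2 negative of 48 tested, a share below the 11.2% and 12.5% of all 16536 genes. CDC25B had an interaction of 0.81 on the log2 scale, TTK of -1.79 and MAD2L1 of -0.69, and a positive value means a higher response in GCN2KO.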

How the results depend on the processing

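The genotype calls changed little. DESeq2, DESeq2 size factors, library size alone, all 20 samples in one fit, no filter and the replicate block kept all 34 called members before HDW and all 43 after it, on the same side. Leaving out each library gave 32 to 37 lower members before HDW (1 higher each time) and 41 to 43 lower and 1 to 2 higher after it, with medians from -1.10 to -0.95 and from -1.49 to -1.29. A filter of a mean of at least 50 counts left 17 and 20 members, of which 12 and 17 were lower. Their medians of -0.74 and -0.99 were smaller in size than those of the main fit (-0.98 and -1.35). This filter left out the members with low counts, among them FOXM1, BIRC5 and KIF4A in both states, and no share of all genes is given for it. After HDW, 2 members were higher with library size alone, with no filter and with the replicate block, the added gene being CDC25B. With a fold of at least 1 log2 unit asked as well, 21 members were lower before HDW and 0 were higher in either state. PTTG1 before HDW changed sign with library size alone (-0.029) and with no filter (-0.0012), and ranged from -0.065 to 0.063 without single libraries. KIF23 before HDW ranged from -0.058 to 0.16, and CENPA after HDW from -0.047 to 0.51.

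The wounding calls were less stable. In WT, leaving out each library gave 4 to 13 higher members and 1 lower, with medians from 0.15 to 0.33, the filter of a mean of 50 counts gave 4 higher among 22, and 0 members passed 1 log2 unit in either direction. In GCN2KO, leaving out each library gave 2 to 4 higher and 0 to 4 lower members, with medians from -0.02 to 0.08. There, 2 members were lower with DESeq2 size factors and with all 20 samples in one fit, and 0 with no filter and with the replicate block. No member passed 1 log2 unit in either direction (0 and 0). In the interaction, leaving out each library gave 1 higher and 2 to 4 lower members, with medians from -0.27 to -0.10. The filter of a mean of 50 counts gave 1 lower, since TTK did not pass it, and 1 log2 unit left 0 higher and 1 lower. The cause of these differences was not tested. The block on replicate number, whose pairing the labels do not state, lost NUF2 in WT and gained BUB1 and KIF18A there, both higher after HDW. It lost INCENP and PTTG1 in GCN2KO, and gained CCNB1 (-0.31) in GCN2KO against WT before HDW. Library totals of 14083504 to 34611570 counts limit what can be seen of the lowest members: 12 of the 50 stayed under 10 counts in every unwounded GCN2KO library and 8 in every wounded one.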
